A study of Rattus norvegicus with 24 samples.

Results

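Left ventricles of rats that ate rotenone for 3 days were compared with those of control rats of the same day. The comparison takes the 8 arrays whose titles give day 3, 4 from rotenone rats and 4 from control rats, of 24 arrays in all. The study placed male RccHan Wistar rats, 7 to 8 weeks old, at random on feed with 400 ppm rotenone or on untreated feed (0 ppm) and took the hearts after 1, 3 or 14 days, which gives 6 groups of 4 arrays. The labels name no genetic change in any group, each array held RNA from the left ventricle apex of 1 rat, and 4 of the 5 rats assigned to a group were arrayed. The methods name no pair-fed controls, and weight loss under rotenone is described, so an effect of the compound and one of eating less cannot be told apart. Rats were housed 2 or 3 to a cage, and neither the cage of each rat nor the hour at which hearts were taken is given in the sources used here.

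Rotenone is a plant compound that blocks complex I, the entry of electrons from NADH into the mitochondrial respiratory chain. The heart draws most of its energy from mitochondria and burns mainly fatty acids, with glucose, lactate and ketone bodies as further fuels. Import of long-chain fatty acids into mitochondria is held back by malonyl-CoA, and entry of pyruvate is held back by the pyruvate dehydrogenase kinases. Many genes of cardiac metabolism also follow the circadian clock, in which Bmal1 and Clock switch on the Per, Cry and Nr1d genes, whose proteins in turn repress the activators.

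The authors' values are intensities from Affymetrix Rat Transcriptome Arrays, 1 per transcript cluster, the unit of measurement of this array. They are given here on the log2 scale, and a change is the mean of the rotenone rats minus the mean of the control rats, ± its standard error (SE), with n = 4 rats per group. Where the values of single rats are given, they stand in the order of rats 1 to 4. A change is called higher or lower where limma gave an adjusted p below 0.05 over the 68842 transcript clusters, and every adjusted p below is of that kind unless another test is named. The 8 arrays had median intensities from 31.3 to 34.7 and correlated with the others of their group at a mean r of 0.987 to 0.99. Most genes lay near background: 5114 of 22093 genes had a mean above the background bound used below, 8.44, under which 95% of the negative control probes lie. A change between means below that bound may be compressed.

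The defining markers of heart muscle were present. The 9 cardiomyocyte markers had a mean of 17.18 to 17.42 in rotenone hearts and 17.04 to 17.26 in control hearts, and 0 of them was called. Tnnt2, cardiac troponin T, read 17.30, 17.30, 17.30 and 17.30 in the rotenone rats and 17.30, 17.32, 17.29 and 17.31 in the control rats. Of 18 endothelial markers 0 was called, with means of 10.58 to 10.88 in rotenone hearts and 10.58 to 10.69 in control hearts. The 15 fibroblast markers stood apart: 6 were lower and 0 higher, and their mean was 9.76 to 10.42 in rotenone hearts, below the 10.69 to 10.96 of control hearts. In whole tissue, fewer cells of a type and less RNA per cell cannot be told apart. Among the controls, rat 3 read far above the other 3 for Pdk4, Otud1, Fos and Atf3, which are given below with and without it.

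In all 448 of 22093 genes were called (2.03%), 142 higher (0.643%) and 306 lower (1.39%) in rotenone hearts. Among the 5114 genes above the background bound the split was nearer even, with 241 called (4.71%), 110 higher (2.15%) and 131 lower (2.56%). These shares are the background for the gene groups below. The lower genes held the larger changes: 91 of them changed by at least 2-fold, against 25 of the higher genes. The median change over all genes was 0.0061 and over those above the bound -0.0014. For 1374 genes every rotenone rat lay above every control rat (6.22%), and for 1463 every rotenone rat lay below (6.62%). Among called genes the groups overlapped for only 1 higher and 2 lower ones. A lack of overlap, where given below for a called gene, therefore adds little to the call. Of the called genes, 61 higher and 121 lower ones passed in each of the 8 fits that left out 1 rat. In transcript clusters the count was 578, 200 higher (0.291%) and 378 lower (0.549%), and it was 363, 351 and 336 without control rat 1, 2 and 3, and 328 and 301 without rotenone rat 1 and 2. Fitted with the 8 arrays of day 3 alone, 123 transcript clusters passed.

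**Figure D1:**
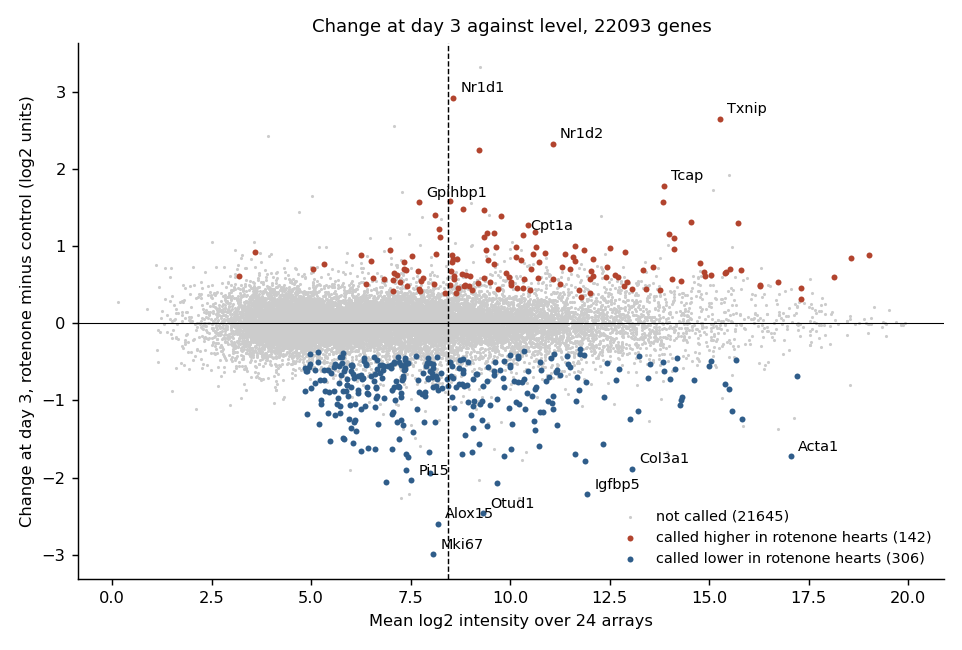
Change of each of 22093 genes (rotenone minus control mean at day 3, log2 units, vertical axis) against its mean log2 intensity over all 24 arrays (horizontal axis). Called genes are coloured, 142 higher and 306 lower, and the dashed line is the background bound of 8.44. Many of the lower genes lie left of it, and Nr1d1, Txnip and Nr1d2 stand above the other higher genes.

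Of the called genes the clock gene Nr1d1 had the largest rise and Nr1d2 the third, after Txnip. Nr1d1 and Nr1d2, the nuclear receptors that repress Bmal1, rose by 2.93 ± 0.39 and 2.33 ± 0.25, and Cry1, a repressor of the activators themselves, fell by 1.11 ± 0.18. Of 10 clock repressors 2 were called higher and 1 lower, with a median change of 0.21. Of 7 activators and competitors of the clock 0 was higher and 1 lower (median -0.16), and of 7 output genes 0 was called in either direction (median 0.27). These medians rest on few genes and on single rats: without rotenone rat 4 that of the repressors was 0.02, and without rotenone rat 1 it was 0.54. The fits without 1 rat gave -0.27 to -0.08 for the activators, and for the output genes from 0.12, without rotenone rat 2, to 0.43, without rotenone rat 3. Nr1d1 read 8.38, 10.19, 9.98 and 10.75 in the rotenone rats and 6.73, 6.56, 6.90 and 7.39 in the control rats. All 4 rotenone rats were above all 4 controls, with rat 1 the lowest of them, and all control values were below the background bound (fold 7.61, adjusted p = 0.000573). Nr1d2 read 11.41, 12.31, 11.69 and 12.69 in rotenone hearts, against 9.48, 9.496, 10.24 and 9.56 in control hearts, without overlap (fold 5.02, adjusted p = 9.61e-05). For Cry1 the values were 7.75, 6.91, 7.19 and 6.60 in rotenone hearts and 8.26, 8.42, 8.35 and 7.87 in control hearts, again without overlap (adjusted p = 0.00208), all of them below the bound. Nfil3, which competes with Dbp for the same DNA sites, fell by 0.54 ± 0.13 at levels below the bound (adjusted p = 0.0429), a call lost in 6 of the 8 fits without 1 rat, while those of Nr1d1, Nr1d2 and Cry1 were lost in 0. Nr1d1 had an adjusted p of 0.0509 with the 8 arrays of day 3 alone.

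The rotenone rats differed among themselves in the rest of the clock. Bmal1, the activator, read 10.05, 8.66, 9.76 and 8.28 in the rotenone rats, against 10.64, 10.50, 10.42 and 10.30 in the control rats, so that all 4 were below every control, rats 2 and 4 by far and rats 1 and 3 by less. Its change of -1.28 ± 0.33 was not called (adjusted p = 0.0743). Dbp, an output gene switched on by Bmal1, read 7.34, 8.90, 7.69 and 9.30 in rotenone hearts and 7.32, 7.17, 7.46 and 7.21 in control hearts, high in the same rats 2 and 4 and within or near the control range in rats 1 and 3 (1.02 ± 0.28, adjusted p = 0.0961). Ciart, a repressor under the same control, read 4.99, 6.66, 4.89 and 6.90 in rotenone hearts and 5.11, 4.68, 4.87 and 4.82 in control hearts, with the same rats standing out (0.99 ± 0.32, adjusted p = 0.196). Per3, a period gene, had 6.15, 6.94, 6.23 and 7.15 in rotenone hearts and 5.86, 5.88, 6.02 and 5.85 in control hearts, and here too rats 2 and 4 were the highest (0.72 ± 0.24, adjusted p = 0.224). Bhlhe41, a repressor, had 8.13, 9.49, 8.23 and 9.85 in rotenone hearts and 8.50, 8.54, 8.51 and 8.31 in control hearts, so that 2 rotenone rats were above and 2 below every control (0.46 ± 0.26, adjusted p = 0.601). Not every clock gene set these rats apart. Per1, another period gene, read 8.58, 8.49, 7.35 and 7.33 in rotenone hearts and 8.59, 9.39, 9.23 and 7.39 in control hearts, so that here rats 1 and 2 were the higher ones (-0.71 ± 0.42, adjusted p = 0.621). Wee1 and Usp2, of the output genes, were also higher in rats 1 and 2 than in rats 3 and 4. Per2 changed by -0.34 ± 0.28 (adjusted p = 0.782), and Clock by -0.26 ± 0.13 (adjusted p = 0.536). Ciart, Per3 and the control values of Dbp lay below the background bound. These genes were picked out after their values were seen, and no test was run on the pairs of rats.

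The windows around the starts of 2 clock genes are shown because they hold motifs of the clock, from RefSeq on build GRCr8, each 5′ to 3′ on the gene's strand from 250 bases before the start to 50 after it. Nr1d1 lies at chr10:84229405-84229704 on the minus strand, and the capitals mark an E-box, CACGTG, the site bound by Bmal1 with Clock, whose first base is at -191. Nr1d1 has another start in the table, at chr10:84231763-84232062, whose window holds none of the motifs searched and is not shown. Bmal1 lies at chr1:176766078-176766377 on the plus strand, and the capitals mark the core of a ROR element, TAGGTCA, the kind of site at which Nr1d1 and Nr1d2 repress, whose first base is at -16.
Nr1d1: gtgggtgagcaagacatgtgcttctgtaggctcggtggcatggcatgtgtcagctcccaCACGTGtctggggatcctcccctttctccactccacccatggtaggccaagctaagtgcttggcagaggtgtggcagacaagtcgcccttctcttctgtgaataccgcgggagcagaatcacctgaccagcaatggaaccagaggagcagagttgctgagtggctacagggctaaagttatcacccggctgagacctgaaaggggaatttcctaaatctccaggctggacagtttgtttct
Bmal1: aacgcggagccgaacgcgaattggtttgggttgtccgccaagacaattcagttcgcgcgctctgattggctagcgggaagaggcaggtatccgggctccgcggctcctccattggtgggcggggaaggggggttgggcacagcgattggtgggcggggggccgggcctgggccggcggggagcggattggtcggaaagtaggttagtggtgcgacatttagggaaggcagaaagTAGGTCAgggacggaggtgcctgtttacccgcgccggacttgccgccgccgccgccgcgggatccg
On either strand, 6.42% of 33469 promoter windows of this length held the E-box letters, 2.63% the ROR core and 0.893% a D-box, TTATGTAA. The 10 windows of 9 of the clock repressors held an E-box in 4 cases, a D-box in 1 and a ROR core in 0, and the 8 windows of the activators held a ROR core in 1. Of these 4 E-box windows only that of Nr1d1 belonged to a called gene. The window of Nr1d2 held none of these motifs, and no window was found for Cry1. A match describes these letters only, and no binding was measured.

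**Figure D2:**
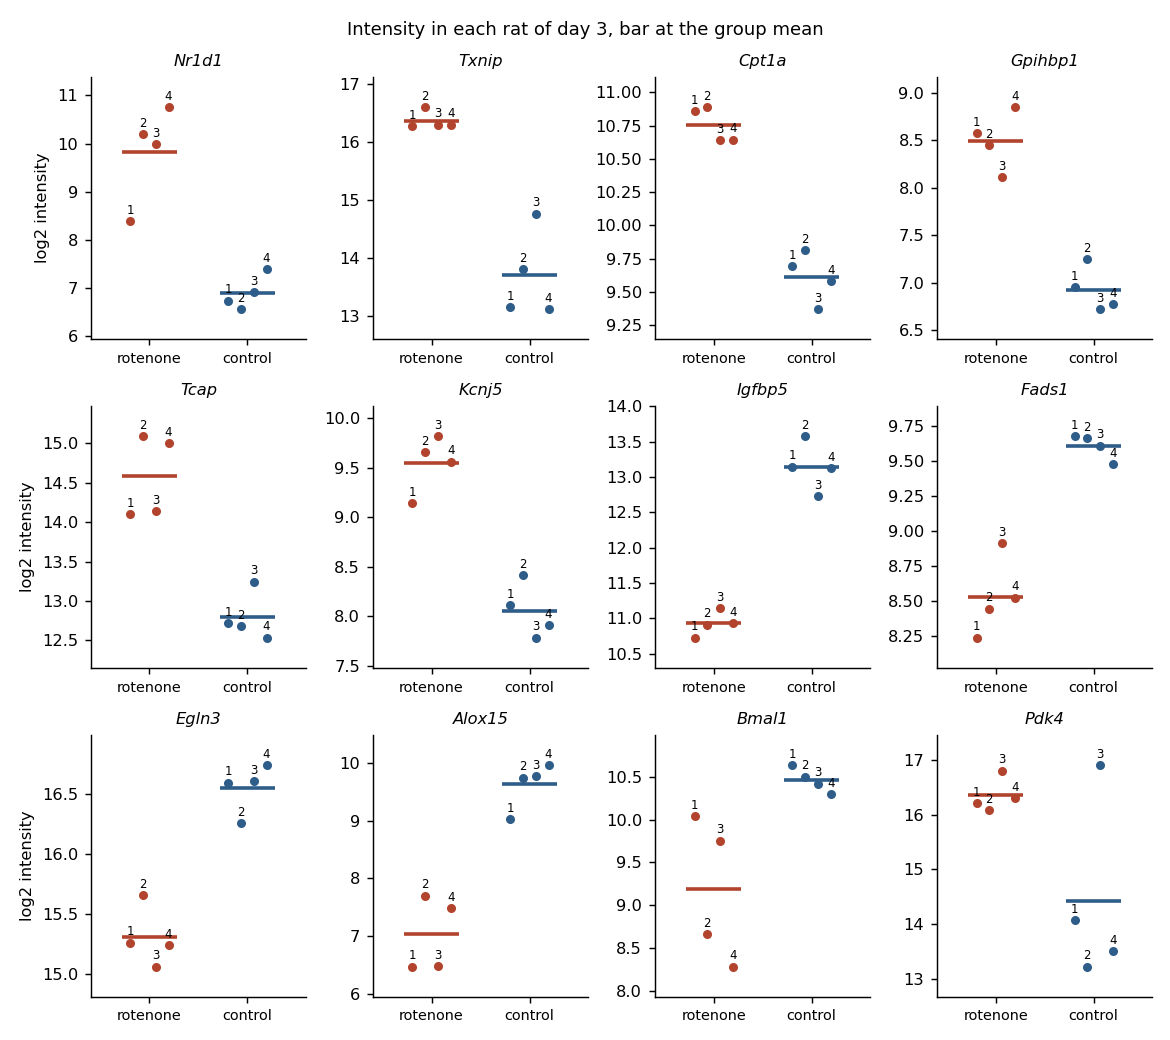
Log2 intensity (vertical axis) of 12 genes in each rat of day 3, rotenone rats on the left and control rats on the right of each panel, with the group mean as a bar and the rat number as the point label. Nr1d1, Txnip, Cpt1a, Gpihbp1, Tcap and Kcnj5 are higher in every rotenone rat than in any control, Igfbp5, Fads1, Egln3 and Alox15 are lower, Bmal1 is lower with rats 2 and 4 farthest from the controls, and Pdk4 overlaps through control rat 3.

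Txnip and Arrdc4, of 1 family of arrestin-like proteins, were higher. Txnip, which withdraws glucose transporters from the cell surface, read 16.27, 16.60, 16.30 and 16.30 in the rotenone rats and 13.16, 13.81, 14.77 and 13.13 in the control rats. The rotenone rats lay close together and above every control, of which rat 3 was the highest, and the change was 2.65 ± 0.30 (fold 6.29, adjusted p = 0.00012). Its relative Arrdc4, of the same family, rose by 1.12 ± 0.14 (adjusted p = 0.000227), with 9.86, 9.78, 10.05 and 10.09 in rotenone hearts and 8.84, 8.68, 8.91 and 8.87 in control hearts. Both groups were narrow for Arrdc4 and did not overlap. Of 28 genes of glucose uptake and glycolysis, Txnip, Arrdc4 and Ldhb were called higher and Pfkl and Ldha lower, with a median of 0.01. Pfkl, the liver form of phosphofructokinase, fell by 0.57 ± 0.11, and Ldha, the lactate dehydrogenase subunit of muscle, by 0.55 ± 0.12, while Ldhb, the heart subunit, rose by 0.32 ± 0.07 (adjusted p = 0.0441). The transporters Slc2a4 and Slc2a1 changed by 0.07 ± 0.12 and -0.04 ± 0.22 (adjusted p = 0.932 and 0.984). The calls of Pfkl, Ldha and Ldhb were lost in 2, 5 and 7 of the 8 fits without 1 rat (adjusted p up to 0.0546, 0.0979 and 0.159), and those of Txnip and Arrdc4 in 0. For Pfkl the rats were rotenone rats 1 and 2.

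Of 15 genes of pyruvate entry 1 was called higher and 0 lower, with a median of -0.15. That gene was Pdk2, a kinase that switches pyruvate dehydrogenase off, with 16.13, 16.50, 15.85 and 15.88 in rotenone hearts and 15.37, 15.40, 15.29 and 15.53 in control hearts, a change of 0.69 ± 0.12 without overlap (adjusted p = 0.00349). This call was lost in 0 of the 8 fits without 1 rat, but the adjusted p was 0.289 with quantile normalization and 0.166 with the 8 arrays of day 3 alone. Pdk4, the kinase of the same enzyme that rises in fasting, read 16.21, 16.09, 16.81 and 16.31 in the rotenone rats and 14.07, 13.22, 16.91 and 13.50 in the control rats. Control rat 3 was above every rotenone rat and the other 3 controls were more than 2 units below them. The change was 1.93 ± 0.61 and was not called (adjusted p = 0.173), and without control rat 3 it was 2.76 (adjusted p = 0.00509). In glycogen metabolism Ugp2, which makes UDP-glucose, rose by 0.61 ± 0.14 as the 1 called gene of 18 (median 0.03), a call lost in 7 of 8 fits, and Gys1, the muscle glycogen synthase, had -0.54 ± 0.13 (adjusted p = 0.0609). With 1 transcript cluster per gene 1 of the 18 was called higher and 2 lower. With quantile normalization 0 were called higher and 1 lower, and with the array medians set equal 0 in either direction.

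Some genes that bring fatty acids into the cell and free them from stores were higher. Of 14 genes of lipid uptake 3 were called higher and 0 lower, with a median of 0.08. Gpihbp1, the capillary protein that holds lipoprotein lipase at the vessel wall, read 8.58, 8.45, 8.11 and 8.85 in rotenone hearts and 6.95, 7.25, 6.72 and 6.77 in control hearts, a change of 1.57 ± 0.22 without overlap (fold 2.98, adjusted p = 0.000737), with the control mean below the bound. The lipase itself, Lpl, read 19.02, 18.92, 18.91 and 18.89 in rotenone hearts and 18.89, 18.95, 18.94 and 18.92 in control hearts (0.01 ± 0.08, adjusted p = 0.995). Angptl4, the secreted inhibitor of that lipase, had 1.10 ± 0.47 at levels below the bound and was not called (adjusted p = 0.4). Slc27a1, a fatty acid transport protein, read 10.86, 10.78, 10.41 and 10.08 in rotenone hearts and 8.88, 8.65, 9.47 and 9.55 in control hearts, also without overlap, and rose by 1.40 ± 0.24 (adjusted p = 0.00431). Cd36, the main fatty acid translocase of the heart, rose by 0.60 ± 0.10 (adjusted p = 0.00194).

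Of 24 genes of triglyceride turnover 3 were higher and 0 lower (median 0.24). Pnpla2, the lipase that takes the first fatty acid from stored triglyceride, read 14.96, 15.80, 14.82 and 14.64 in rotenone hearts, against 13.62, 13.50, 13.91 and 13.95 in control hearts, with rotenone rat 2 the highest and no overlap, and rose by 1.31 ± 0.21 (fold 2.48, adjusted p = 0.00208). Lipe, the hormone-sensitive lipase of the next step, rose by 0.89 ± 0.15 (adjusted p = 0.00322). Gpam, which starts the assembly of glycerolipids, also rose, by 0.93 ± 0.18 (adjusted p = 0.0119), so the higher genes of this group lie on both sides of the store. Plin2 and Plin5, which coat lipid droplets, changed by -0.04 ± 0.14 and 0.31 ± 0.16 (adjusted p = 0.973 and 0.552). The call of Gpam was lost in 2 of the 8 fits without 1 rat, those without rotenone rat 1 (0.0506) and control rat 2 (0.0527), and those of Gpihbp1, Slc27a1, Cd36, Pnpla2 and Lipe in 0.

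Genes of fatty acid oxidation were called in 1 direction, higher. Of 28 genes 9 were called higher and 0 lower. The background is 0.643% over all genes and 2.15% among genes above the bound, where 26 of the 28 lay. A positive change was seen for 27, and 17 were higher without overlap (background 6.22%). The median was 0.40, against 0.0061 over all genes. The higher genes began with Cpt1a and Cpt1b, the carnitine transferases that commit long-chain fatty acids to mitochondrial import. Cpt1a, the form known from liver, read 10.86, 10.89, 10.64 and 10.64 in rotenone hearts and 9.70, 9.81, 9.37 and 9.58 in control hearts, a change of 1.14 ± 0.16 (adjusted p = 0.000798), and Cpt1b, the muscle form, read 15.78, 15.83, 15.63 and 15.46 in rotenone hearts and 14.94, 15.07, 14.95 and 15.11 in control hearts, a change of 0.66 ± 0.10 (adjusted p = 0.00105). Neither gene overlapped between the groups. The malonyl-CoA that inhibits both is made by Acacb and removed by Mlycd, and both of these were higher. Mlycd read 9.99, 9.78, 9.97 and 9.65 in rotenone hearts and 8.82, 8.88, 8.82 and 9.07 in control hearts (0.95 ± 0.15, adjusted p = 0.00182). Acacb read 13.14, 12.99, 12.88 and 12.70 in rotenone hearts and 12.08, 12.54, 12.18 and 12.40 in control hearts (0.63 ± 0.13, adjusted p = 0.0149), a call lost in 4 of the 8 fits without 1 rat (adjusted p up to 0.0744). The groups did not overlap for either.

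Ech1 and Eci1, isomerases needed for unsaturated fatty acids, rose by 1.16 ± 0.15 (adjusted p = 0.000482) and 0.90 ± 0.15 (adjusted p = 0.00342). Ech1 read 14.58, 14.63, 14.60 and 14.42 in rotenone hearts, against 13.26, 13.49, 13.15 and 13.69 in control hearts, and every rotenone rat was above every control. Decr1, the reductase of the same branch, had 1.02 ± 0.27 and was not called (adjusted p = 0.0797). Acot2, a mitochondrial thioesterase that frees fatty acids from CoA, rose by 0.91 ± 0.15 (adjusted p = 0.00208). The acyl-CoA dehydrogenases Acadm and Acadl, of the first oxidising step, had 0.11 ± 0.11 and 0.15 ± 0.12 (adjusted p = 0.83 and 0.763). Without 1 rat in turn, 7 to 9 of the 28 genes were called higher, and 3 were with the 8 arrays of day 3 alone.

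Hadha and Hadhb, the 2 subunits of the trifunctional protein that carries out the last 3 steps for long chains, rose by nearly equal amounts. Hadha read 17.69, 17.64, 17.62 and 17.44 in rotenone hearts and 17.14, 17.06, 17.16 and 17.20 in control hearts (0.46 ± 0.09, adjusted p = 0.0117, lost in 1 of 8 fits, that without rotenone rat 1, at 0.0525), and Hadhb read 17.15, 17.08, 16.96 and 16.89 in rotenone hearts and 16.51, 16.50, 16.42 and 16.51 in control hearts (0.54 ± 0.09, adjusted p = 0.00397, lost in 0). Rat 4 was the lowest rotenone rat for both, and neither overlapped with the controls. The genes point away from each other on chromosome 6 with starts 301 bases apart, so their windows share 200 bases. The window of Hadha, chr6:31907551-31907850 on the plus strand of GRCr8, is shown from 250 bases before its start to 50 after it, and it holds no match to the motifs searched, so nothing is in capitals.
Hadha: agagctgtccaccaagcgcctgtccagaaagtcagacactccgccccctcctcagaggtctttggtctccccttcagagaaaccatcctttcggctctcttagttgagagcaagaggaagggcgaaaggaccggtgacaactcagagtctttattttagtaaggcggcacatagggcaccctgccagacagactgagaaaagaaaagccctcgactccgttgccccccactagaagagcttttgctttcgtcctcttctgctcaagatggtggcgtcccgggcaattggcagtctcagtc
None of the 23 windows found for the 28 genes held a DR1 element, AGGTCA followed after 1 base by AGGTCA again, on either strand, and 0.0538% of all windows did. At so low a share a count of 0 was nearly fixed in advance. A ROR core was found in 1 of the 23 windows, against 2.63% of all windows. A DR1 element can overlap the ROR core. This says nothing about binding of a factor.

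**Figure D3:**
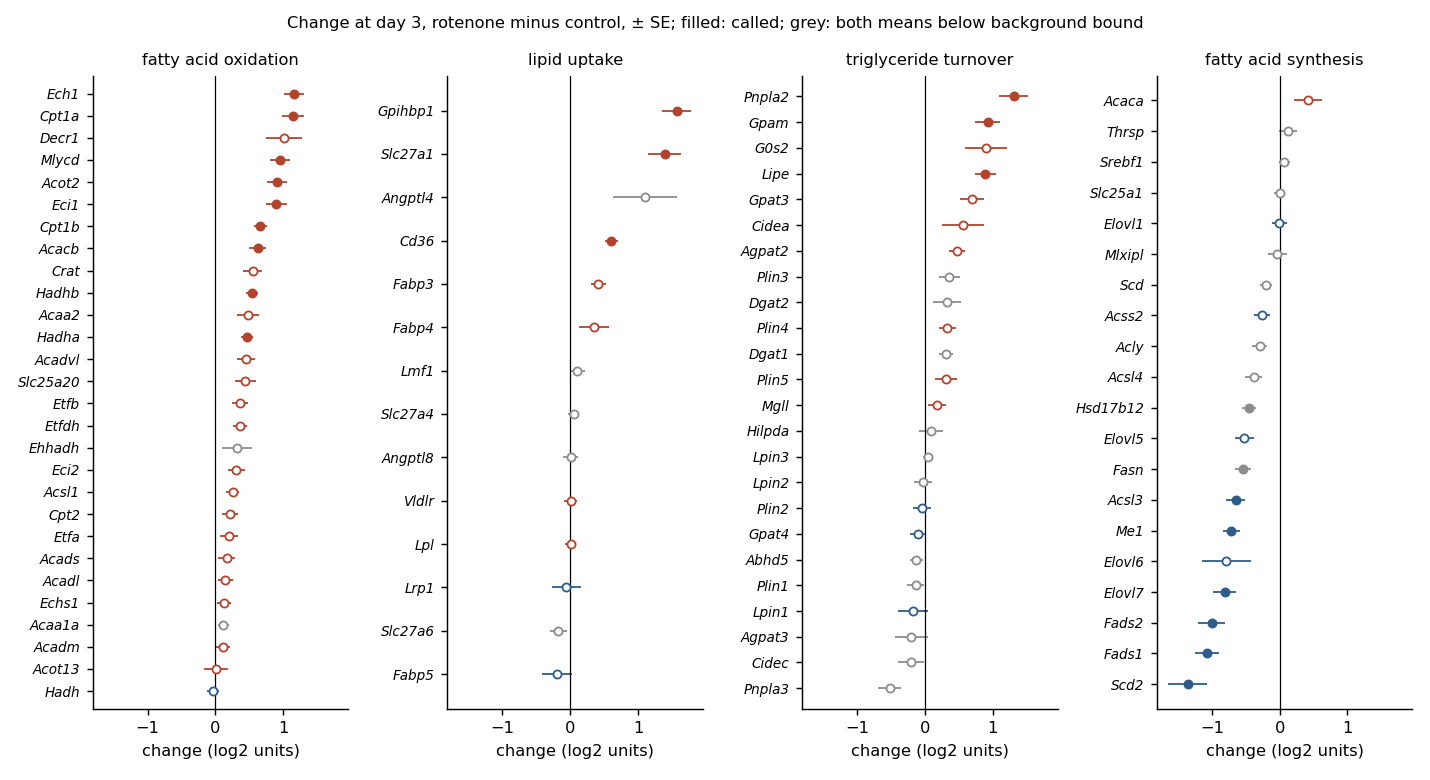
Change at day 3 (rotenone minus control, log2 units, horizontal axis) of every measured gene of fatty acid oxidation, lipid uptake, triglyceride turnover and fatty acid synthesis (rows), with the SE of the fit as the bar. Filled points are called genes, open points are not, and grey rows have both means below the background bound. Called genes of oxidation, uptake and turnover all lie to the right of 0 and those of synthesis all to the left.

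Carriers of the inner mitochondrial membrane moved in both directions. Of 21 carriers 5 were higher and 1 lower (median 0.08). Ucp3, a carrier of muscle that follows fatty acid supply, rose by 1.41 ± 0.30 (adjusted p = 0.0218), with 9.29, 8.04, 9.54 and 8.57 in rotenone hearts and 7.71, 6.93, 7.55 and 7.60 in control hearts. Ucp2, its widely expressed relative, fell by 1.14 ± 0.24 (adjusted p = 0.0214), with 15.10, 14.23, 15.04 and 15.02 in rotenone hearts and 15.81, 15.79, 16.11 and 16.25 in control hearts. The groups did not overlap for either gene. Slc25a22, a glutamate carrier, rose by 0.83 ± 0.14 (adjusted p = 0.00274), and Slc25a34, Slc25a42, a carrier of coenzyme A, and Slc25a28, an iron carrier, by 0.82 ± 0.16, 0.54 ± 0.13 and 0.41 ± 0.10. The calls of Ucp3, Ucp2, Slc25a34, Slc25a42 and Slc25a28 were lost in 4, 3, 4, 5 and 7 of the 8 fits without 1 rat (adjusted p up to 0.097, 0.101, 0.0588, 0.164 and 0.172), and that of Slc25a22 in 0. Bdh1, the mitochondrial enzyme that interconverts the ketone bodies, fell by 1.19 ± 0.20 (adjusted p = 0.00378), with 8.63, 8.39, 8.39 and 8.11 in rotenone hearts and 9.29, 9.54, 9.79 and 9.66 in control hearts. It was the 1 called gene of 8 for ketone body and monocarboxylate use, and all 4 rotenone rats were below all controls. Pparg, a nuclear receptor of lipid genes, was the 1 called gene of 20 PPAR, ERR and PGC-1 regulators, higher by 0.62 ± 0.14 at levels below the bound (adjusted p = 0.0249, lost in 6 of 8 fits).

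Among genes of fatty acid synthesis the called ones were all lower. Of 20 genes of fatty acid synthesis and desaturation 8 were lower (background 1.39%) and 0 higher, 17 had a negative change, and the median was -0.41. Above the bound, where the background of lower genes is 2.56%, lay 8 of the 20. With the filter at the bound 5 were called lower. Scd2, a desaturase that makes monounsaturated fatty acids, fell by 1.36 ± 0.28 (adjusted p = 0.0189), with 8.14, 8.47, 8.61 and 8.54 in rotenone hearts and 9.49, 10.02, 9.69 and 10.004 in control hearts. Fads1, which makes arachidonic acid from its precursor, read 8.24, 8.45, 8.91 and 8.53 in rotenone hearts and 9.67, 9.66, 9.61 and 9.47 in control hearts, a fall of 1.07 ± 0.18 (adjusted p = 0.00288), and its neighbour in the pathway, Fads2, fell by 1.00 ± 0.20. Both desaturases and Scd2 were lower in every rotenone rat than in any control. Me1, which supplies NADPH, fell by 0.71 ± 0.12 (adjusted p = 0.00422), and Elovl7 and Hsd17b12, of fatty acid elongation, by 0.81 ± 0.17 and 0.45 ± 0.10. Fasn, fatty acid synthase, fell by 0.54 ± 0.12, like Hsd17b12 at levels below the bound, and Acsl3, which activates fatty acids, by 0.65 ± 0.14. The number of called genes was sensitive to single rats: it was 3, 2, 7 and 6 without rotenone rat 1, 2, 3 and 4, and 3, 4, 4 and 6 without control rat 1, 2, 3 and 4. Calls were lost in 0 of these fits for Fads1 and Me1, in 3 for Fads2, 4 for Scd2, 4 for Elovl7, and 6 each for Fasn, Acsl3 and Hsd17b12.

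Of 20 genes of sterol synthesis 4 were lower and 0 higher, with a median of -0.09, and 6 of the list lay above the bound. The list was mixed: 6 genes had a positive change, and 2 were higher and 6 lower without overlap (background 6.22% and 6.62%). With the filter at the bound 1 gene was called higher and 1 lower. Fdft1, squalene synthase, had the highest change, with 12.14, 12.47, 11.56 and 11.89 in rotenone hearts and 11.36, 11.34, 11.24 and 11.31 in control hearts (0.70 ± 0.21, adjusted p = 0.136). Sqle, which oxidises squalene, fell by 0.90 ± 0.12 (adjusted p = 0.000573), with 6.28, 5.91, 6.19 and 5.95 in rotenone hearts and 7.07, 6.95, 7.10 and 6.82 in control hearts. All of these Sqle values lay below the bound. Idi1, of the isoprenoid steps, fell by 0.75 ± 0.14 (adjusted p = 0.00629), and Msmo1, a later demethylation step, by 0.55 ± 0.12 (adjusted p = 0.0329). Srebf2, the transcription factor of the pathway, fell by 0.55 ± 0.11 (adjusted p = 0.0191). No rotenone rat reached a control value for the 4 lower genes, and the calls of Srebf2 and Msmo1 were lost in 4 and 6 of the 8 fits without 1 rat (adjusted p up to 0.0935 and 0.125).

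Within the contractile apparatus 3 of 35 genes of sarcomere and Z-disc were higher and 1 lower, with a median of -0.0042. Tcap, which caps titin at the Z-disc, read 14.10, 15.09, 14.14 and 15.00 in the rotenone rats and 12.72, 12.68, 13.24 and 12.53 in the control rats. Rats 2 and 4 were the highest of the rotenone group, and all 4 were above every control (1.79 ± 0.27, fold 3.45, adjusted p = 0.00144). Myom2, of the M-band, rose by 0.85 ± 0.16 (adjusted p = 0.00839). Myh7, the slow myosin heavy chain, read 19.55, 19.57, 19.42 and 19.56 in rotenone hearts and 18.66, 19.28, 18.07 and 18.53 in control hearts, a rise of 0.89 ± 0.18 (adjusted p = 0.0131), near the highest log2 value of the table, 19.93, where changes may be compressed. Acta1, the skeletal form of alpha-actin, read 16.17, 15.80, 15.12 and 16.45 in rotenone hearts and 18.28, 18.22, 16.53 and 17.39 in control hearts, with a wide spread among both groups and control rat 3 the lowest of its group, and fell by 1.72 ± 0.34 (adjusted p = 0.0121). The calls of Myh7 and Acta1 were lost in 1 and 3 of the 8 fits without 1 rat (adjusted p up to 0.0552 and 0.0581), that of Myh7 without control rat 3. Of 15 genes of peptide hormones and cardiac stress 0 was called, though 1 was called higher and 1 lower with the filter at the bound and with 1 transcript cluster per gene. Penk, proenkephalin, had the highest change of any gene in the lists, with 10.77, 10.21, 12.16 and 8.46 in rotenone hearts and 6.47, 6.80, 7.21 and 7.82 in control hearts, without overlap and with a wide spread (3.33 ± 0.90, adjusted p = 0.0945). Without rotenone rat 4, the lowest of its group, it was 3.97 (adjusted p = 0.0471). The stress marker Nppa, the atrial natriuretic peptide, read 16.05, 16.97, 14.93 and 16.38 in rotenone hearts and 15.16, 15.00, 14.28 and 15.92 in control hearts, overlapping (0.99 ± 0.54, adjusted p = 0.582).

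Of 36 genes of ion channels and calcium handling 2 were higher and 0 lower (median 0.02), both of them potassium channels that act at rest. Kcnj5, a subunit of the channel that acetylcholine opens, read 9.14, 9.66, 9.82 and 9.56 in rotenone hearts and 8.11, 8.41, 7.78 and 7.91 in control hearts (1.49 ± 0.21, fold 2.8, adjusted p = 0.000798). Kcnk3, a leak channel sensitive to acid, read 11.07, 11.47, 10.73 and 10.87 in rotenone hearts and 9.85, 10.37, 10.15 and 10.18 in control hearts (0.90 ± 0.14, fold 1.86, adjusted p = 0.00224). Both were higher in every rotenone rat. Chrm2, the muscarinic receptor that acts on the Kcnj5 channel, fell by 0.79 ± 0.14 (adjusted p = 0.00516), with 15.19, 15.21, 14.83 and 14.88 in rotenone hearts and 15.65, 15.96, 16.01 and 15.64 in control hearts. It belongs to 27 genes of adrenergic and cAMP signalling, of which 1 was higher and 2 lower (median -0.05). Adcy6, a cyclase that makes cAMP, rose by 0.80 ± 0.13 (adjusted p = 0.00201) and Pde4b, which degrades it, fell by 0.81 ± 0.12 (adjusted p = 0.000849). Adrb1, the main beta receptor of the heart, changed by 0.08 ± 0.14 (adjusted p = 0.935). None of the calls of Kcnj5, Kcnk3, Chrm2, Adcy6 and Pde4b was lost in the 8 fits without 1 rat.

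Several genes of growth factor signalling and of the early response were lower. Igfbp5, which binds insulin-like growth factors outside the cell, read 10.72, 10.91, 11.14 and 10.93 in the rotenone rats and 13.15, 13.58, 12.73 and 13.13 in the control rats. The groups lay well apart, with a change of -2.22 ± 0.25 (adjusted p = 0.00012). Of 16 genes of this axis 1 was higher and 2 lower (median -0.15). The stanniocalcins, which restrain the protease that frees these growth factors, moved apart: Stc2 rose by 0.84 ± 0.16 (adjusted p = 0.0093) and Stc1 fell by 0.89 ± 0.20 (adjusted p = 0.0335, lost in 7 of 8 fits). Igf1 itself had -0.78 ± 0.21 and was not called (adjusted p = 0.0979). Mest, an imprinted gene of early growth, fell by 1.63 ± 0.23 (adjusted p = 0.000798) at levels below the bound, as the 1 called gene of 14 imprinted growth genes. Ccn2, a matricellular protein induced by stretch and by TGF-beta, read 8.50, 8.47, 8.42 and 7.79 in rotenone hearts and 9.55, 10.001, 10.48 and 9.79 in control hearts, a fall of 1.66 ± 0.30 without overlap (adjusted p = 0.00684).

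Of 36 genes of the early response 5 were lower and 0 higher, with a median of -0.24, which was -0.11 without control rat 3 and -0.37 without control rat 4. They were Ccn2, the orphan nuclear receptors Nr4a1 and Nr4a2, the transcription factor Atf3 and the kinase Sik1. Only 8 of the 36 had a mean above the background bound. The mean over the list overlapped between the groups, with 7.02 to 7.31 in rotenone hearts and 7.14 to 8.16 in control hearts. Nr4a1 read 7.51, 7.07, 7.48 and 7.01 in rotenone hearts and 8.44, 10.04, 10.07 and 8.29 in control hearts, with control rats 2 and 3 the highest (-1.95 ± 0.39, adjusted p = 0.0137). Atf3 read 6.86, 6.45, 6.72 and 6.49 in rotenone hearts and 7.78, 8.08, 9.35 and 7.30 in control hearts (-1.499 ± 0.30, adjusted p = 0.0159, above the threshold without rotenone rat 2 at 0.0623), with control rat 3 the highest. Otud1, a deubiquitinase, read 8.61, 8.25, 8.24 and 8.04 in rotenone hearts and 10.16, 10.99, 12.54 and 9.29 in control hearts, with the same control rat the highest (-2.46 ± 0.50, adjusted p = 0.0171, lost in 3 of 8 fits). Fos, the prototype of this class, read 5.47, 5.85, 5.40 and 5.17 in rotenone hearts and 7.19, 7.03, 9.29 and 5.98 in control hearts and was not called (-1.90 ± 0.59, adjusted p = 0.162). Without control rat 3 the changes were -1.66 for Nr4a1, -1.09 for Atf3, -1.86 for Otud1 and -1.26 for Fos. Both group means of Atf3 and of Fos lay below the bound, as did every rotenone value of Nr4a1. The count of called early genes was 4, 1, 3 and 3 without rotenone rat 1, 2, 3 and 4, and 4, 2, 2 and 5 without control rat 1, 2, 3 and 4, and of the 5 genes the call of Ccn2 alone was lost in 0 of these fits (Nr4a1 3, Nr4a2 6, Atf3 1, Sik1 6 of 8).

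Among 26 targets and regulators of the hypoxia-inducible factors 3 were lower and 0 higher, with a median of -0.03. Egln3, the prolyl hydroxylase that marks these factors for destruction and is itself their target, read 15.26, 15.66, 15.06 and 15.24 in rotenone hearts and 16.60, 16.26, 16.61 and 16.74 in control hearts. No value overlapped, and the fall was 1.25 ± 0.18 (adjusted p = 0.000798), lost in 0 of the 8 fits without 1 rat. Loxl2, a collagen cross-linking oxidase, fell by 0.83 ± 0.17 (adjusted p = 0.0149, lost in 3 of 8), and Ldha is given above. Vegfa, the vascular growth factor among these targets, had 0.21 ± 0.15 (adjusted p = 0.72).

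Some genes of autophagy and detoxification were higher, while the classical stress responses gave few calls. Of 28 genes of autophagy and mitophagy 4 were higher and 0 lower (median 0.17). Gabarapl1, which coats the autophagosome, read 11.90, 12.15, 11.77 and 11.65 in rotenone hearts and 10.94, 10.67, 10.91 and 10.94 in control hearts, a rise of 1.00 ± 0.15 without overlap (adjusted p = 0.00128). Pink1, the kinase that marks damaged mitochondria, rose by 0.50 ± 0.10 (adjusted p = 0.00978), Pik3c3, the lipid kinase of autophagosome formation, by 0.42 ± 0.10, and Wipi2, which binds its product, by 0.39 ± 0.09. The calls of these 4 genes were lost in 0, 1, 6 and 7 of the 8 fits without 1 rat, and 1 to 4 of the list were called in those fits. For Pink1 the fit was that without rotenone rat 2 (adjusted p = 0.0501). Fbxo31, a substrate receptor of ubiquitin ligases, rose by 1.17 ± 0.20 (adjusted p = 0.0032) as the 1 called gene of 19 atrophy ligases and their regulators. The ligases known best from muscle atrophy, Fbxo32 and Trim63, had -0.0034 ± 0.18 and 0.35 ± 0.15 (adjusted p = 0.999 and 0.422). Ctsd, a lysosomal protease, rose by 0.44 ± 0.10 (adjusted p = 0.034, lost in 5 of 8 fits), as the 1 called gene of 24 lysosome genes.

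Of 38 genes of the antioxidant response 3 were higher and 0 lower, with a median of 0.08, namely Ucp3, Gsta4 and Gpx4. Gsta4, which removes aldehydes made from oxidised lipids, rose by 0.80 ± 0.17 (adjusted p = 0.023) and Gpx4, which reduces lipid peroxides, by 0.39 ± 0.09 (adjusted p = 0.0497), calls lost in 4 and 8 of the 8 fits without 1 rat. The markers of Nrf2 activity Nqo1 and Hmox1 had 0.07 ± 0.15 and -0.55 ± 0.23 at levels below the bound (adjusted p = 0.952 and 0.402). Of 23 detoxification genes 2 were higher and 1 lower (median 0.25, and 0.19 to 0.39 without 1 rat in turn). Cyp2e1, a cytochrome P450 of small molecules, had the highest change of these without being called, with 8.59, 8.82, 7.13 and 7.80 in rotenone hearts and 5.23, 5.36, 5.70 and 5.80 in control hearts, without overlap (2.56 ± 0.64, adjusted p = 0.0652). With 1 transcript cluster per gene its adjusted p was 0.0209. Both group means of Cyp2e1 lay below the bound. Ephx2, which hydrolyses the epoxides of arachidonic acid, read 10.46, 10.27, 10.04 and 9.85 in rotenone hearts and 9.21, 9.24, 8.98 and 9.24 in control hearts, a rise of 0.99 ± 0.12 without overlap (adjusted p = 0.000187). Por, the electron donor of the cytochromes P450, rose by 0.76 ± 0.17 (adjusted p = 0.0251, lost in 5 of 8), and Aldh1a1, which makes retinoic acid, fell by 0.80 ± 0.14 (adjusted p = 0.00458). Of 28 genes of the ATF4 response 1 was higher, Stc2, and 3 were lower, Slc7a1, a carrier of cationic amino acids (-0.74 ± 0.12), Atf3 and Aldh18a1, of proline synthesis (-0.46 ± 0.11, lost in 8 of 8). Of 20 chaperones of the endoplasmic reticulum 0 was called (median -0.13), and of 16 mitochondrial chaperones and proteases 0 (median 0.12).

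Complex I is the complex that rotenone blocks. Of 46 genes of complex I 0 was called, with a median of 0.09 and changes from -0.34 to 0.55. Without overlap 8 genes were higher and 3 lower (background 6.22% and 6.62%). With the filter at the bound 2 of them were called higher, and with 1 transcript cluster per gene 1. Ndufa1, an accessory subunit, had 0.55 ± 0.16 (adjusted p = 0.122), and Ndufs1, which holds iron-sulfur clusters, -0.17 ± 0.11 (adjusted p = 0.69). The 33 genes of complexes III to V, the 16 of the citrate cycle and the 52 of the mitochondrial ribosome also held 0 called genes, with medians of 0.04, -0.01 and 0.07. The cytosolic ribosome stood out among the lists with 0 calls. Of its 48 genes 47 had a positive change, 22 were higher without overlap (background 6.22%) and 0 lower, the median was 0.31, and the mean over the list was 10.99 to 11.15 in rotenone hearts and 10.61 to 10.93 in control hearts. Ribosomal protein genes have many processed copies, so single members are uncertain. With 1 transcript cluster per gene tested, 7 of them were called higher, and with the filter at the bound 6. The 38 proteasome genes held 0 calls (median 0.06), as did 19 tubulins (median -0.16), of which 8 were lower without overlap (background 6.62%). Of the tubulins 4 were called lower with 1 transcript cluster per gene and 2 with the filter at the bound, with quantile normalization and with the filter at the median intensity.

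**Figure D4:**
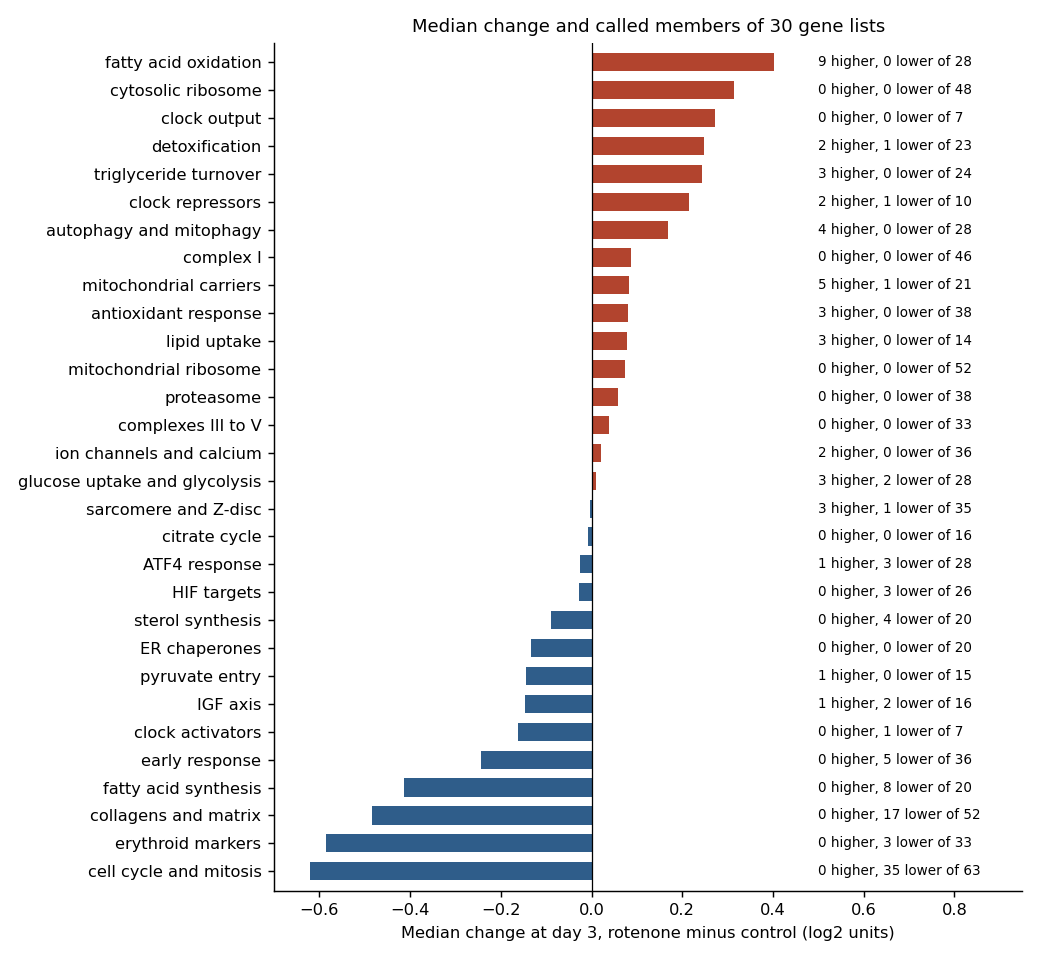
Median change at day 3 (rotenone minus control, log2 units, horizontal axis) of 30 gene lists (rows), with the number of members called higher and lower of the number measured written at the right. Each bar runs from 0 to the median over the measured members. Fatty acid oxidation, at 0.40, and the cytosolic ribosome, at 0.31, are the highest medians shown, and the cell cycle, at -0.62, is the lowest.

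Cell division and matrix genes made up many of the lower genes and are given here only as counts beside the cell types. Of 63 genes of mitosis 35 were lower and 0 higher, and of 52 genes of collagens and matrix 17 were lower and 0 higher. Only 2 of the 63 genes of mitosis had a mean above the background bound, against 35 of the 52 matrix genes. Most of the mitosis calls therefore rest on signals near background, where the size of a change may be compressed. Without 1 rat in turn these were 24 to 35 and 11 to 19. The 6 lower fibroblast markers, Col1a1, Col1a2, Col3a1, Lum, Mfap5 and Pi16, are matrix genes in 5 cases, and the calls of Mfap5 and Pi16 were lost in 2 and 5 of 8 fits, that of Mfap5 without rotenone rat 1 and without control rat 1. Pdgfra, a receptor that marks fibroblasts, had -0.45 ± 0.21 and Dcn, decorin, -0.18 ± 0.19, and neither was called (adjusted p = 0.459 and 0.86). Gsn, gelsolin, was the 1 marker higher without overlap (background 6.22%), with 14.74, 15.50, 15.10 and 14.96 in rotenone hearts and 14.38, 14.52, 14.30 and 14.62 in control hearts (0.62 ± 0.22, adjusted p = 0.27). Outside the list, Serpinf1, an inhibitor of vessel growth, read 9.03, 9.85, 9.33 and 9.81 in rotenone hearts and 10.76, 10.97, 10.58 and 10.96 in control hearts (-1.31 ± 0.20, adjusted p = 0.00133), and Fstl1, a follistatin-like protein, fell by 1.05 ± 0.18 (adjusted p = 0.00409). The groups did not overlap for Serpinf1 or Fstl1.

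Markers of blood cells were lower or level. Of 33 erythroid markers 3 were lower and 0 higher, 20 were lower without overlap (background 6.62%), and their mean was 7.94 to 8.24 in rotenone hearts and 8.62 to 8.85 in control hearts. Slc4a1, the anion exchanger of red cells, read 8.08, 7.75, 7.95 and 8.03 in rotenone hearts and 9.37, 9.80, 9.88 and 9.55 in control hearts (-1.70 ± 0.27, adjusted p = 0.00201), lost in 0 of 8 fits. Ahsp, the chaperone of alpha-globin, and Epb42, of the red cell skeleton, fell by 1.07 ± 0.25 and 0.67 ± 0.16 below the bound, and each of these calls was lost in every fit without 1 rat. Alas2, which starts heme synthesis in red cell precursors, read 8.25, 9.71, 8.70 and 10.15 in rotenone hearts and 10.78, 11.70, 11.81 and 11.58 in control hearts, without overlap, and was not called (-2.27 ± 0.61, adjusted p = 0.0916). Alox15, the 12/15-lipoxygenase, an enzyme first described in rabbit reticulocytes, read 6.47, 7.70, 6.48 and 7.48 in rotenone hearts and 9.03, 9.75, 9.78 and 9.97 in control hearts, and fell by 2.60 ± 0.38 without overlap (adjusted p = 0.00105). All rotenone values of Alox15 lay below the bound. Among called genes with 1 group mean or both above the bound, it had the largest fall outside cell cycle, replication, histone and matrix genes. Genes with only a locus or clone symbol were left out of this ranking. The part of the erythroid markers in the fall of Alox15 was not tested.

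Of 9 mast cell markers Mcpt1l1, a mast cell protease, was lower (-0.97 ± 0.22, adjusted p = 0.0404, lost in 6 of 8 fits), and all 9 had a negative change, with a mean of 5.31 to 5.77 in rotenone hearts and 5.79 to 6.06 in control hearts, all below the bound. Of 18 macrophage, 13 neutrophil and 18 lymphocyte markers 0 was called, and of 33 chemokines and cytokines, 18 complement and 30 interferon genes 0. The medians of these 6 lists lay between -0.09 and 0.07. Of 10 platelet markers 0 was called, but all 10 had a negative change (median -0.27). Their mean was 5.30 to 5.63 in rotenone hearts and 5.55 to 6.10 in control hearts, below the bound. Casq1, the calsequestrin of skeletal muscle, was the 1 called marker of 14 of that tissue, with 9.66, 8.52, 8.44 and 9.02 in rotenone hearts and 10.31, 11.29, 10.24 and 10.69 in control hearts (-1.72 ± 0.38, adjusted p = 0.0314, lost in 7 of 8 fits).

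Further large changes lay outside these lists. The smallest p of the comparison was that of Ptp4a3, a tyrosine phosphatase, with 10.95, 11.36, 11.15 and 11.11 in rotenone hearts and 9.91, 9.96, 9.98 and 9.997 in control hearts (1.18 ± 0.10, adjusted p = 4.93e-06). C6h14orf180 followed, with 11.14, 11.36, 10.99 and 11.30 in rotenone hearts and 9.71, 10.08, 10.07 and 9.86 in control hearts (1.27 ± 0.13, adjusted p = 4.29e-05). Both genes were narrow within each group and did not overlap. Cd63, a tetraspanin of late endosomes, rose by 1.10 ± 0.13 (adjusted p = 0.00012), Parm1, a mucin-like membrane protein, by 1.30 ± 0.21, Lrrc2, a leucine-rich repeat protein, by 1.58 ± 0.25, and Lamb2, a laminin chain of basement membranes, by 0.97 ± 0.14. Pla2g7, which degrades platelet-activating factor, rose by 1.22 ± 0.23 and Ttc7b, of a lipid kinase complex, by 0.98 ± 0.14. Ptprs, a receptor phosphatase, rose by 1.17 ± 0.16. The calls of these 9 genes were lost in 0 of the 8 fits without 1 rat, while those of Tmem140 (1.47 ± 0.29), Asb18 (1.59 ± 0.34), Gnb3, a G protein subunit (0.98 ± 0.20), Rbp7, a retinol-binding protein (1.12 ± 0.26), Gprin3 (0.99 ± 0.23) and Twf2, twinfilin (0.95 ± 0.22), were lost in 3, 6, 4, 7, 8 and 7.

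On the lower side Pi15, a peptidase inhibitor, read 5.89, 6.58, 6.88 and 6.95 in rotenone hearts and 8.67, 8.53, 9.13 and 8.11 in control hearts (-2.04 ± 0.24, adjusted p = 0.000178), and Opcml, an adhesion protein of neurons, had 7.04, 7.28, 7.39 and 7.22 in rotenone hearts and 9.04, 8.96, 8.61 and 9.02 in control hearts (-1.67 ± 0.22, adjusted p = 0.000487). Dpysl3, a cytoskeletal protein of growing axons, had 8.12, 8.20, 8.31 and 8.54 in rotenone hearts and 9.97, 9.78, 9.66 and 9.53 in control hearts (-1.44 ± 0.16, adjusted p = 0.00012). These 3 genes did not overlap between the groups. Lrat, which stores retinol as esters, fell by 1.28 ± 0.19 (adjusted p = 0.00105), so that of the retinoid genes named here Lrat and Aldh1a1 were lower and Rbp7 higher. Pcsk6, a proprotein convertase, fell by 1.15 ± 0.17, Gria3, a glutamate receptor subunit, by 1.09 ± 0.14, Sntb1, a syntrophin of the dystrophin complex, by 1.24 ± 0.23, Mlf1 by 1.31 ± 0.22 and S100a11, a calcium-binding protein, by 1.04 ± 0.17. The calls of these 9 genes were lost in 0 of the 8 fits without 1 rat. Those of Slco3a1, an organic anion transporter (-1.15 ± 0.24), Emp1, a membrane protein (-1.11 ± 0.24), Nrep (-1.06 ± 0.21) and Antxr1, a receptor for collagen (-1.05 ± 0.24), were lost in 4, 4, 3 and 7.

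Day 3 was set beside days 1 and 14, which have control rats of their own but share the estimate of the spread. Of all genes, 0.471% were called higher and 0.638% lower at day 1, and 2.23% and 3.59% at day 14. Of the 142 genes higher at day 3, 136 had a positive change at day 1 and 140 at day 14, and 42 were called higher on all 3 days. Of the 306 lower genes 254 had a negative change at day 1 and 306 at day 14, and 34 were called lower on all 3 days. The median change of the genes called higher at day 3 was 0.49, 0.68 and 0.55 at days 1, 3 and 14, and that of the genes called lower was -0.30, -0.76 and -0.66. The genes were chosen on the day 3 value, which favours that day.

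The difference between the day 3 effect and that of another day was tested itself. No transcript cluster passed for day 3 against day 1, with 3950 at an unadjusted p under 0.05 (5.74%), and none for day 3 against day 14, with 3222 (4.68%). The smallest p against day 1 was that of Alox15, which changed by 0.82 ± 0.38, -2.60 ± 0.38 and -2.35 ± 0.38 at days 1, 3 and 14 (adjusted p = 0.0826 for the difference). Among the 12 smallest were cell cycle genes such as Mki67, a marker of dividing cells whose day 3 rotenone values lay below the background bound (0.01 ± 0.35, -2.998 ± 0.35 and -2.43 ± 0.35 at days 1, 3 and 14, adjusted p = 0.117), and Slc4a1 (0.37 ± 0.27, -1.70 ± 0.27 and -2.07 ± 0.27, adjusted p = 0.128). C6h14orf180 was the 1 of these 12 with a rise at day 3 (0.27 ± 0.13, 1.27 ± 0.13 and 0.60 ± 0.13, adjusted p = 0.117). Against day 14 the smallest p was that of Hnrnpa1, an RNA-binding protein, which changed by -0.09 ± 0.10, -0.11 ± 0.10 and 0.66 ± 0.10 (adjusted p = 0.587). Rbm3, an RNA-binding protein induced by cold, had 0.19 ± 0.19, 0.19 ± 0.19 and 1.51 ± 0.19 (adjusted p = 0.813).

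Several genes of the lipid and clock groups had like values on all 3 days. Cpt1a changed by 1.25 ± 0.16, 1.14 ± 0.16 and 1.15 ± 0.16 at days 1, 3 and 14, Gpihbp1 by 1.59 ± 0.22, 1.57 ± 0.22 and 2.02 ± 0.22, and Nr1d1 by 2.43 ± 0.39, 2.93 ± 0.39 and 2.59 ± 0.39. Others had values at day 3 between those of the other days. Bmal1 changed by -0.07 ± 0.33, -1.28 ± 0.33 and -2.78 ± 0.33, and Serpinf1 by -0.38 ± 0.20, -1.31 ± 0.20 and -2.15 ± 0.20. Angptl4 and Pdk4 had their highest value at day 1, with 2.63 ± 0.47, 1.10 ± 0.47 and 1.37 ± 0.47 for Angptl4 and 4.02 ± 0.61, 1.93 ± 0.61 and 1.88 ± 0.61 for Pdk4. Bdh1 changed by 0.06 ± 0.20, -1.19 ± 0.20 and -1.59 ± 0.20, and Myh7 by -0.07 ± 0.18, 0.89 ± 0.18 and 0.57 ± 0.18. For all 9 of these genes the difference between days missed the threshold, with the lowest adjusted p at 0.315, and a p that misses it does not show that the days were alike.

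**Figure D5:**
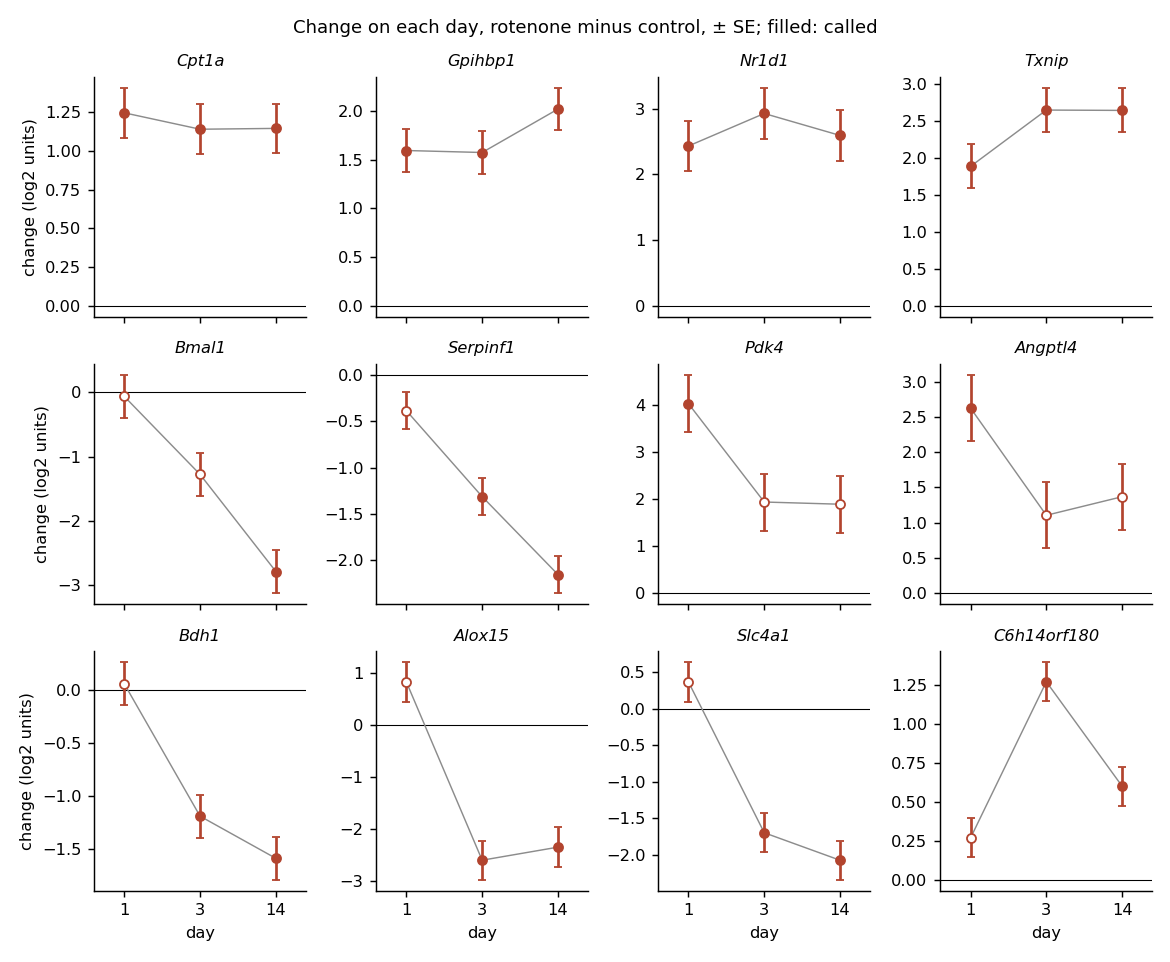
Change (rotenone minus control, log2 units, vertical axis) at days 1, 3 and 14 (horizontal axis, equally spaced) for 12 genes, 1 panel each, with the SE of the fit as the bar. Filled points were called on that day. Cpt1a, Gpihbp1 and Nr1d1 have like values on the 3 days, Bmal1 and Serpinf1 have their lowest value at day 14, and Alox15, Slc4a1 and Bdh1 lie near or above 0 at day 1 and below it at days 3 and 14.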

How the data were processed

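Left ventricle RNA of 24 rats was measured on Affymetrix Rat Transcriptome Arrays 1.0, with 1 array per rat. The deposited table holds linear intensities, 1 for each transcript cluster and array. The authors corrected them for GC content (GCCN) and with signal space transformation (SST), and condensed the probes by the robust multi-array average (RMA). Software versions, genome build and annotation release are, for these steps, not given in the sources used here. Such steps make array distributions alike and can compress changes near background and near the upper end of the scale. The number of arrays limits the precision.

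Groups came from the sample titles. The log2 of each intensity was taken, and 1738 array control rows of 70580 were left out. The 95th percentile of 1153 negative controls gave a background bound of 8.44, their median being 4.96. Symbols came from the platform annotation held by GEO: 23446 transcript clusters had 1 symbol, 505 several and 44891 none, and those with several or none were tested but not named. A gene is represented by its transcript cluster with the highest mean, a choice that touched 1182 genes with more than 1. Of 1738 entries in 73 gene lists, 1647 were measured, 14 of them under a synonym. All 24 arrays were fitted with 1 mean for each treatment and day in limma 3.58.1 (R 4.3.3), with eBayes and Benjamini-Hochberg adjustment over 68842 transcript clusters. The contrasts were rotenone minus control at day 3 and its difference from the same contrast at days 1 and 14. The fit was tested on simulated data. Tables were handled with pandas 2.3.3 and the R package data.table, version 1.17.8 (Python 3.11.15), and plots drawn with matplotlib 3.10.9. Promoter windows are those of RefSeq on GRCr8.

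The members, lists and tests were chosen with earlier results of these data known, so no p-value is given for a list. Genes were named from the 30 genes with the largest rise and the 30 with the largest fall that were called and above the bound, outside cell cycle, replication, histone and matrix lists, from the called members and the 4 smallest p-values of each list, from the 12 smallest p-values of each difference between days, and from the cell type markers. A further 21 of the 165 named genes, regulators or well-known members of a list, were added with their values in view. Alternatives changed the normalization, the filter on intensity, the variance model, the arrays fitted, the minimum change and the test, and left out each rat of day 3 in turn.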

Additional observations from a re-analysis of the deposited data

Results flagged for a closer look

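In 330 groups of 4 rats, those of the 165 named genes at day 3, the highest or lowest rat was set against its group: its gap to the nearest rat was divided by the range of the group and compared with Dixon's critical value. This value was exceeded in 20 groups (6.06%), and chance alone gives about 1 in 20. Of these rats, rotenone rat 4 and control rat 3 appeared 5 times each, control rat 2 appeared 3 times, control rats 1 and 4 and rotenone rat 2 appeared 2 times each, and rotenone rat 3 appeared 1 time. The values are log2 intensities.

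Rotenone rat 4 stood below its group for Ccn2 at 7.79 (others 8.42 to 8.50), for Slc2a1 at 7.68 (8.49 to 8.59) and for Pik3c3 at 7.80 (7.94 to 7.96). It stood above for Mki67 at 6.92 (6.07 to 6.202), and also for Tnnt2 at 17.30, where the whole group lies within 0.01 and the ratio says little. Rotenone rat 2 was low for Ucp2 at 14.23 (15.02 to 15.10) and high for Txnip at 16.60 (16.27 to 16.30), and rotenone rat 3 was low for Myh7 at 19.42 (19.55 to 19.57).

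Control rat 3 was high for Nr1d2 at 10.24 (others 9.48 to 9.56), Angptl4 at 6.40 (5.46 to 5.57) and Gprin3 at 10.07 (9.66 to 9.73), and low for Ephx2 at 8.98 (9.21 to 9.24) and Hadhb at 16.42 (16.50 to 16.51). Control rat 2 was low for Gpam at 12.11 (12.37 to 12.40) and Gabarapl1 at 10.67 (10.91 to 10.94) and high for Stc1 at 8.89 (8.50 to 8.52). Control rat 1 was low for Lipe at 7.57 (7.80 to 7.83) and high for Stc2 at 8.40 (8.21 to 8.23), and control rat 4 was low for Bhlhe41 at 8.31 (8.50 to 8.54) and high for Vegfa at 13.14 (13.03 to 13.04). Without control rat 3 the called changes of Nr1d2, Ephx2 and Hadhb kept their calls, and the call of Gprin3 was lost.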

How the results depend on the processing

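The number of transcript clusters called at day 3 depended on the settings. It was 578 as reported, 200 higher and 378 lower. It fell to 365 with the array medians set equal (101 higher), to 232 with a minimum change of 1.8-fold (71 higher, 161 lower), to 199 with the methods' factorial test (60 higher, 139 lower) and to 123 with the 8 arrays of day 3 alone (39 higher, 84 lower). It was 1211 with the filter at the median intensity (511 higher, 700 lower), 936 with the filter at the background bound (473 higher, 463 lower) and 1247 with 1 transcript cluster per gene (498 higher, 749 lower), where fewer transcript clusters were tested. It was 654 with quantile normalization, 777 with trend and robust variances, 798 with array weights (319 higher) and 755 with the first within-group component as a covariate. Leaving out each rat in turn gave 301 to 500, of which 98 to 180 were higher and 190 to 323 lower. The lowest count was that without rotenone rat 2.

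For the difference of the day 3 effect from that of day 1 the count was 0 as reported. It was 6 with quantile normalization and 0 or 1 without 1 rat. Added after the data were seen, the filter at the median intensity gave 10, 1 transcript cluster per gene 33, trend and robust variances 2 and array weights 17. For the difference from day 14 it was 1 with the filter at the bound and 0 in the other settings. The cause of these differences in count was not tested.

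No pairing by the rat numbers of the titles was seen over all transcript clusters: the deviations of same-numbered rats from their group means correlated at -0.09 to 0.01. As 14.7% of transcript clusters had a mean above the background bound, this check could not show a pairing that acts on few genes. With the replicate block of rat numbers as a term, 519 transcript clusters were called, 175 higher and 344 lower, and of the 165 named genes 150 kept their side of the threshold, 14 lost their call and 1 gained it.

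Of the 123 named genes that were called, none changed sign under any setting that tested them. This was nearly fixed in advance and is no sign of robustness. The groups of almost all called genes did not overlap, so leaving out 1 rat cannot reverse their change. The filters, the variance model and the minimum change leave the change itself as it was. The call was kept by 68 of the 123 in all 8 fits without 1 rat. Those fits lost from 19 calls, without rotenone rat 4, to 47, without rotenone rat 2. Calls were lost by 30 genes with the array medians set equal, by 16 with quantile normalization, by 41 with the minimum change and by 80 with the 8 arrays alone. Genes near 0 that were not called changed sign. Lpl was -0.022 under equal array medians and -0.051 under quantile normalization, and Fbxo32 was 0.049 under array weights. Without 1 rat in turn the change was -0.022 to 0.021 for Lpl, -0.20 to 0.12 for Fbxo32, -0.020 to 0.15 for Adrb1, -0.26 to 0.00037 for Dcn, -0.10 to 0.0068 for Plin2, -0.13 to 0.17 for Slc2a1, -0.015 to 0.16 for Slc2a4 and -0.0090 to 0.00086 for Tnnt2.

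With 4 rats a group the comparison misses smaller changes. In data simulated from the means and spreads of these arrays, 67, 67 and 66 of 68842 transcript clusters were changed by 1.5-fold, 2-fold and 4-fold. Of these changes 16.4%, 64.2% and 97.0% were recovered, with 5 false calls among 123. The simulation held fewer changes than the 578 called here and drew each value independently, so these rates need not hold for the comparison itself. Of the named genes 30 had both means below the background bound, where signal over background limits the size of a change.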
